A study of Mus musculus with 2 samples.

Results

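The DNA replication and nucleotide synthesis machinery was described here by 50 genes, chosen by name from the known origin, helicase, polymerase, clamp, fragment joining, nucleotide supply and chromatin assembly factors. They were 50 of the 43346 Ensembl genes, and of the 21474 protein-coding genes, in the gene tables, and were grouped into 13 complexes or steps. The rule uses gene names and no measured value. Gene positions are on mm10, from GENCODE M21. Levels are in TPM, a read abundance divided by transcript length and scaled to the same total in each library, so that genes can be compared.

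G1E-ER4 is an immortalized erythroid cell line of the mouse, and its polyadenylated RNA was sequenced with paired ends in 2 libraries labelled replicate 1 and replicate 2. Its parent, G1E, lacks Gata1, and a GATA1 fusion to an estrogen receptor ligand-binding domain was added to give G1E-ER4. The labels describe restored Gata1 and maturation induced with estradiol, with neither dose nor time, and no uninduced library was analysed here. The labels also give the molecule as total RNA, the sex as male and the stage as postnatal, and both libraries cite 1 biosample record, so the spread between them may be technical. The design allowed no comparison of conditions. The comparisons made were between members of a complex, between the members and all expressed genes, and between the libraries. The labels name no sort by cell cycle phase, and fewer cells with a transcript cannot be told apart from less of it in each cell.

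Replication begins in G1 phase, when the origin recognition complex, Cdc6 and Cdt1 load the MCM2-7 helicase onto DNA. In S phase the kinase of Cdc7 and Dbf4, with Cdc45, GINS and Mcm10, turns the loaded helicase on. Polymerase alpha-primase then lays primers, polymerases delta and epsilon extend them with the sliding clamp Pcna, and Fen1 and Lig1 join the lagging strand fragments. Erythroid progenitors divide several times while they mature and stop dividing before the nucleus is lost. Many genes of this machinery are known targets of E2F factors, which act at the start of S phase.

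Promoter windows of 250 bases before to 50 bases after the start were taken from RefSeq (GRCm38.p6, mm10) and held 51 promoters of 42 of the members. The E2F site was searched on both strands as TTTCCCGC, TTTCGCGC, TTTGCCGC and TTTGGCGC, and matches on opposite strands can overlap. It occurred in 15 of the 42 genes (35.7%) and in 15 of the 51 promoters (29.4%). The same letters occurred in 2.26% of all 32851 promoters of this length and in 5.57% of the 6712 protein-coding genes that had a promoter and reached 1 TPM in each library (expressed genes). The genes with a match were Mcm3, Mcm5, Mcm6, Mcm7, Orc1, Orc3, Cdc6, Cdt1, Gins3, Pola1, Pold1, Pold3, Pole2, Rfc3 and Lig1. For 9 of them a match lay before the start, and those stretches are printed to show the letters, their number and their direction, 5′ to 3′ on the strand of the gene, with the match in capitals.
Mcm6 (chr1:128359715-128359845, minus strand): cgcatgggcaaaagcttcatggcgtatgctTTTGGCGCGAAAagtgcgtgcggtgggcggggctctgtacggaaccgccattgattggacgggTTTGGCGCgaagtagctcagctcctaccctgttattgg
Mcm5 (chr8:75109326-75109397, plus strand): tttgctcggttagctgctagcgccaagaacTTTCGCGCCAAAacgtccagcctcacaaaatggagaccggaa
Mcm7 (chr5:138172011-138172078, minus strand): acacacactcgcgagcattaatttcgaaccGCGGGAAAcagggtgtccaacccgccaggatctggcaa
Orc1 (chr4:108579397-108579453, plus strand): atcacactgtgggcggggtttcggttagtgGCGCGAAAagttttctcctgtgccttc
Orc3 (chr4:34614946-34615013, minus strand): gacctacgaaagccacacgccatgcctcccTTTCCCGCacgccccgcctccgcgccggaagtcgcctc
Cdc6 (chr11:98907983-98908050, plus strand): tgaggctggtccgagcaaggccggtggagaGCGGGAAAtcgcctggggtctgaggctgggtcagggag
Gins3 (chr8:95633488-95633555, plus strand): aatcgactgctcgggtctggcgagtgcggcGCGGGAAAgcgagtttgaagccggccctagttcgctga
Pola1 (chrX:93632256-93632323, minus strand): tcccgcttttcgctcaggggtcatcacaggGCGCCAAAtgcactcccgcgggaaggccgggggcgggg
Rfc3 (chr5:151651209-151651248, minus strand): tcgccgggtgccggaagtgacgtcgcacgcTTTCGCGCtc

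The Mcm6 stretch held 3 matches and the Mcm5 stretch 2, with overlapping matches on opposite strands in each. Other promoter letters were nearer to the background. CCAAT was found in 25 of the 42 genes (59.5%) against 44.2% of expressed protein-coding genes, GGGCGG, the GC box, in 33 (78.6%) against 73.1%, and TTTGAA, the CHR element of cell cycle genes, in 7 (16.7%) against 13.8%. A match is a description of letters and not a measured binding site. The genes with an E2F match had a median level of 21.4 TPM and ranged from 2.20 to 480 TPM, and those without had a median of 45.5 TPM and ranged from 1.94 to 559 TPM. The ranges overlapped almost fully.

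**Figure D1:**
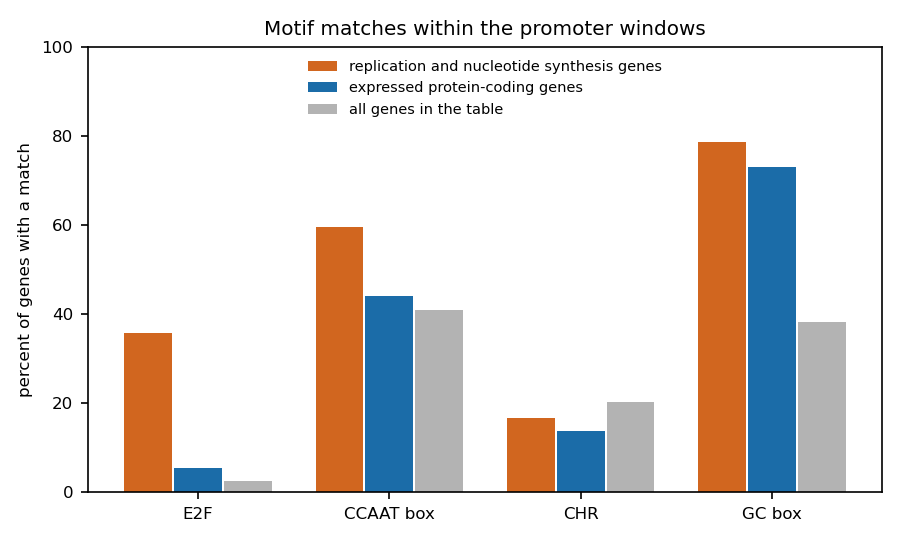
The bars give the percent of genes with at least 1 match to each motif in a window of 300 bases, on a linear axis that starts at 0, for the 42 matched members, for expressed protein-coding genes and for all genes in the promoter table. The E2F bar of the members stands at 35.7% against 5.57% for expressed genes, while the GC box bars stand at 78.6% and 73.1%.

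All 50 members reached 1 TPM in both libraries, against 39.0% of protein-coding genes (8376 of 21474). Their median level was 34.2 TPM, with 27.8 TPM as the median of replicate 1 and 36.1 TPM as that of replicate 2. Over the 8376 expressed protein-coding genes the median was 20.5 TPM. Of the members, 33 lay above that median, 17 above the upper quartile of expressed genes (63.4 TPM) and 10 below the lower quartile (6.71 TPM). By gene TPM the highest member, Pold2 (chr11:5872180-5878292, minus strand), and the lowest, Prim1 (chr10:128015168-128030037, plus strand), differed 289-fold in mean level. The members took 0.597% of counts in replicate 1 and 0.646% in replicate 2.

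**Figure D2:**
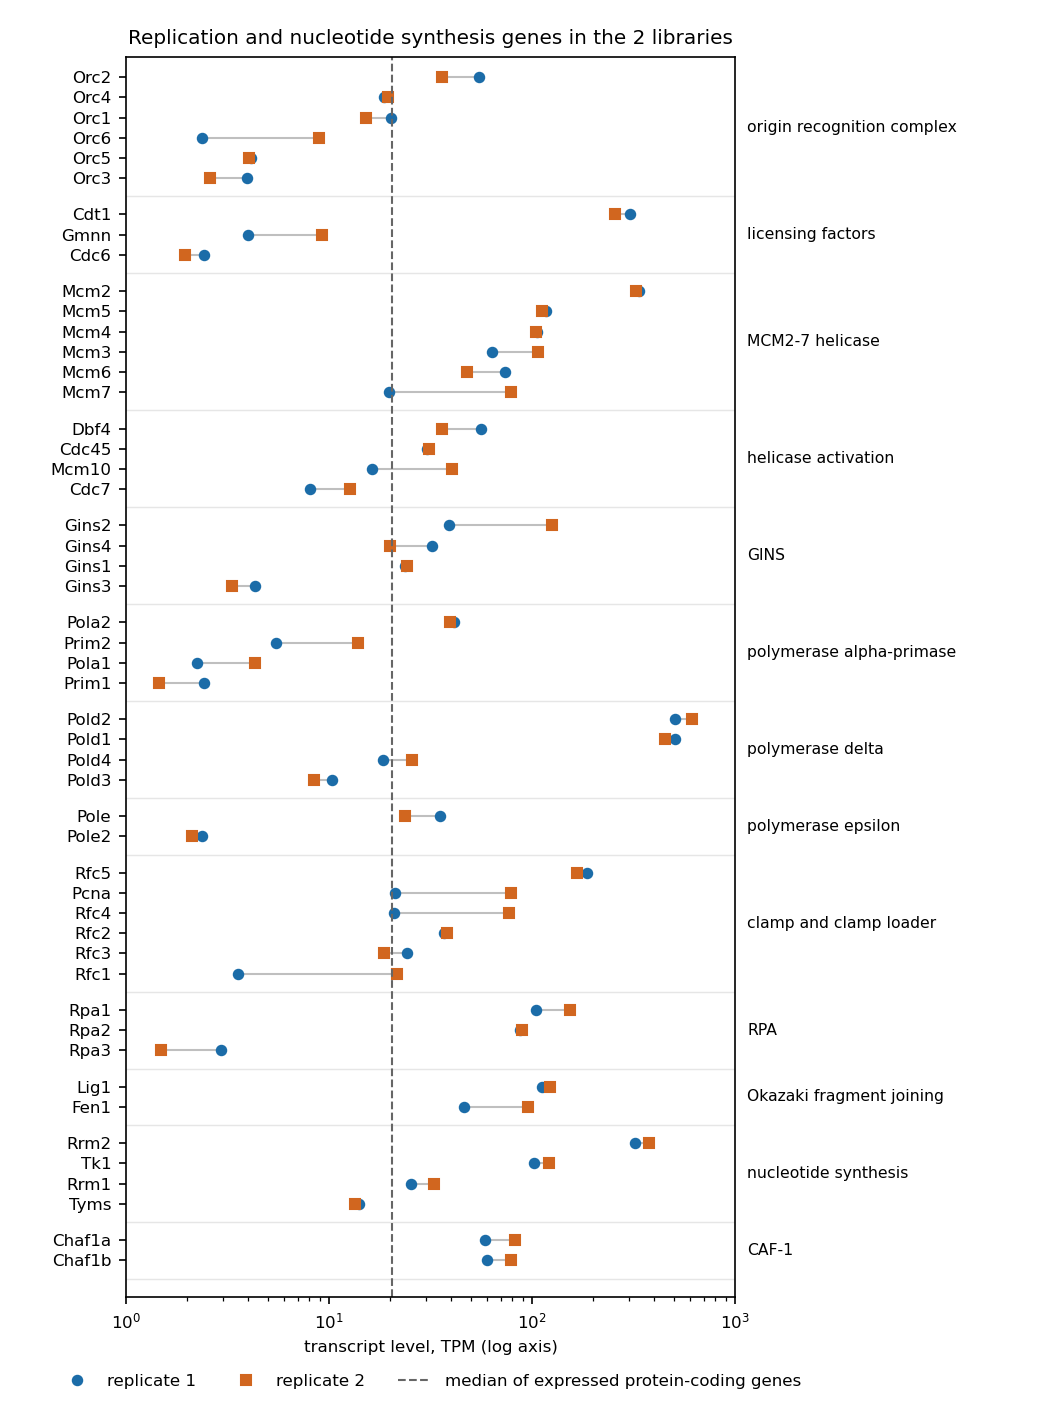
Points give the TPM of each member in replicate 1 (circles) and replicate 2 (squares) on a log axis, grouped by complex, and the dashed line marks the median of expressed protein-coding genes at 20.5 TPM. Levels range widely within most complexes, from 9.39 to 559 TPM in mean level among the subunits of polymerase delta.

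The origin recognition complex marks the sites where replication starts, and its median level was 11.7 TPM. Orc2, a core subunit, was the highest, with 55.0 TPM in replicate 1 against 36.1 TPM in replicate 2. Orc1, the ATPase subunit that rises and falls with the cell cycle, was at 20.1 and 15.2 TPM. Orc4, another subunit of the ATPase fold, was at 18.7 and 19.6 TPM, so that the order of Orc1 and Orc4 differed between the libraries. By gene TPM the other core subunits were lower, and Orc5 was at 4.13 and 4.02 TPM and Orc3 at 3.95 and 2.59 TPM. Orc6, the most loosely bound subunit, had 2.38 TPM in replicate 1 against 8.90 TPM in replicate 2. By gene TPM its rank changed from the lowest to the fourth. Orc2 exceeded Orc5 13.3-fold in replicate 1 and 8.97-fold in replicate 2, or 3.68-fold and 2.39-fold over complete coding models. Over those models the order differed, with Orc1 at 3.31 and 3.70 TPM and Orc4 at 0.59 and 0.25 TPM. Both were then under Orc5, at 4.02 TPM in each library.

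Of the licensing factors, Cdt1 (chr8:122568015-122573554, plus strand), which carries the helicase to the origin, was among the highest members. Its levels were 305 and 258 TPM (281 ± 33.4 TPM, SD, n = 2). Cdc6, the ATPase that works beside Cdt1, was at 2.43 and 1.96 TPM, so that Cdt1 exceeded Cdc6 by 125-fold in replicate 1 and 131-fold in replicate 2. Geminin (Gmnn), the inhibitor of Cdt1, was at 4.0 and 9.22 TPM. Cdt1 exceeded Gmnn 76.2-fold in replicate 1 and 27.9-fold in replicate 2, a wider shift between libraries than that of Cdt1 to Cdc6.

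The 6 subunits of MCM2-7, which form the ring of the replicative helicase in equal numbers, had a median of 95.7 TPM and unequal transcript levels. Mcm2 (chr6:88883474-88898780, minus strand) was the highest at 338 and 325 TPM (331 ± 9.64 TPM, SD, n = 2). Mcm5 followed at 118 and 113 TPM and Mcm4 was at 106 and 105 TPM. These 3 subunits kept nearly the same level in both libraries, whereas the other 3 did not. Mcm3 was at 63.8 and 107 TPM, which placed it under Mcm4 in replicate 1 (Mcm4 to Mcm3 ratio 1.67) and level with it in replicate 2 (0.98). Mcm6 was at 73.8 and 48.0 TPM. Mcm7 (chr5:138164583-138172422, minus strand) was at 19.8 and 78.9 TPM, the lowest subunit in replicate 1 and above Mcm6 in replicate 2. Mcm2 therefore exceeded Mcm7 17.1-fold in replicate 1 and 4.12-fold in replicate 2. Over complete coding transcript models alone, a class described with the isoforms, that ratio was 33.2 and 7.37, and Mcm7 stayed below Mcm6 in replicate 2 (44.1 against 47.8 TPM).

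Among the factors that activate the helicase, Cdc45, a part of the active helicase, was at 30.3 and 31.1 TPM. Mcm10, which joins as the helicase starts to unwind, was at 16.2 and 40.2 TPM, or 5.42 and 15.7 TPM over complete coding models. Dbf4, the regulatory subunit of the activating kinase, was at 56.0 and 36.2 TPM. Its catalytic partner Cdc7 was lower in both libraries, at 8.02 and 12.6 TPM. The 4 GINS subunits bind in equal numbers and ranged from 3.81 to 82.1 TPM in mean level. Gins2 was at 39.2 and 125 TPM, and most of the higher value was assigned to a short transcript model described with the isoforms. Gins1 was at 23.8 and 24.2 TPM, Gins4 at 32.3 and 20.1 TPM, and Gins3 at 4.30 and 3.32 TPM, so Gins3 was the lowest in both libraries.

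Polymerase alpha-primase, which starts every new strand, had a median of 6.50 TPM, the lowest of the complexes by gene TPM. Over complete coding models the origin recognition complex was lower, at 3.76 TPM against 6.49 TPM. Its accessory subunit Pola2 was at 41.1 and 39.2 TPM, and the catalytic subunit Pola1 at 2.24 and 4.31 TPM, which gave ratios of 18.3 and 9.10. The primase subunits were Prim1, the catalytic one, at 2.42 and 1.45 TPM, and Prim2 at 5.50 and 13.96 TPM. Pola2 was the highest subunit and Prim2 the second in both libraries, while Pola1 and Prim1 exchanged places.

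Polymerase delta, the main enzyme of the lagging strand, had a median of 251 TPM, the highest of the complexes by gene TPM. Over complete coding models it was at 96.6 TPM against 95.1 TPM for MCM2-7, as medians of mean levels. By library it was the higher in neither, at 87.8 against 89.8 TPM in replicate 1 and 105.4 against 105.44 TPM in replicate 2. Pold1 (chr7:44532746-44548849, minus strand), its catalytic subunit, was at 505 and 454 TPM (480 ± 35.9 TPM, SD, n = 2). Pold2, which bridges the catalytic and accessory subunits, was at 507 and 612 TPM (559 ± 74.3 TPM, SD, n = 2). In replicate 1 both had nearly the same level, and in replicate 2 Pold2 was the higher. The accessory subunits were lower, with Pold3 at 10.3 and 8.44 TPM and Pold4 at 18.5 and 25.6 TPM. Pold1 exceeded Pold3 by 48.8-fold and 53.8-fold, and by gene TPM the order of the 4 subunits was the same in both libraries. Over complete coding models Pold1 was above Pold2 in both, at 264 and 239 TPM against 157 and 185 TPM. Of polymerase epsilon, the enzyme of the leading strand, Pole was at 35.4 and 23.7 TPM and its subunit Pole2 at 2.37 and 2.11 TPM.

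The sliding clamp Pcna (chr2:132249162-132253314, minus strand), which holds the polymerases on DNA, had 21.1 TPM in replicate 1 against 79.0 TPM in replicate 2. The clamp loader, replication factor C, opens the clamp and places it on the primer. Its large subunit Rfc1 was at 3.58 and 21.7 TPM. Rfc5 was the highest of the small subunits at 187 and 166 TPM, and Rfc2 was at 37.0 and 38.3 TPM. Rfc4 was at 20.99 and 77.0 TPM, and Rfc3 at 24.2 and 18.6 TPM. Rfc5 exceeded Rfc3 7.73-fold in replicate 1 and 8.89-fold in replicate 2, and Pcna, Rfc1 and Rfc4 were the members of the group that differed most between the libraries. By scaled counts Rfc1 differed 1.81-fold, less than its TPM, against 4.08-fold for Pcna and 2.81-fold for Rfc4. The Rfc1 model of highest TPM had 4751 bases in replicate 1 and 685 bases in replicate 2.

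Replication protein A covers single-stranded DNA as a complex of 3 subunits in equal numbers. Rpa1, the large subunit, was at 105 and 153 TPM, and Rpa2 at 86.9 and 89.6 TPM. Rpa3, the smallest subunit, was at 2.95 and 1.49 TPM, and Rpa1 exceeded it by 35.6-fold and 103-fold, or by 14.2-fold and 34.5-fold over complete coding models. The flap nuclease Fen1 was at 46.5 and 95.2 TPM and the ligase Lig1 at 112 and 123 TPM, and together they process the lagging strand fragments. The ratio of Lig1 to Fen1 was 2.41 in replicate 1 and 1.29 in replicate 2, and it turned to 0.18 and 0.12 when only complete coding models were counted.

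Among the enzymes of nucleotide synthesis, Rrm2 (chr12:24708241-24714146, plus strand), the small subunit of ribonucleotide reductase, was the highest at 321 and 376 TPM (348 ± 38.6 TPM, SD, n = 2). Rrm1, the large subunit with which it pairs, was at 25.3 and 33.0 TPM, and the ratio of Rrm2 to Rrm1 was 12.7 and 11.4. Thymidine kinase (Tk1), which salvages thymidine, was at 102 and 122 TPM. Thymidylate synthase (Tyms), which makes dTMP anew, was at 14.1 and 13.4 TPM. The subunits of CAF-1, which places histones behind the fork, had like levels, with Chaf1a at 58.8 and 82.7 TPM and Chaf1b at 60.2 and 78.9 TPM. The ratio of Chaf1a to Chaf1b was 0.98 in replicate 1 and 1.05 in replicate 2, so neither was the higher in both. Over complete coding models the ratio was 1.34 and 1.08, with Chaf1a the higher in both.

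Level went with base composition. Over the 50 members, log2 TPM and the GC content of the longest transcript had a Spearman rho of 0.63, and over the 8376 expressed protein-coding genes 0.32, both across genes measured in the same libraries. The 4 members of highest GC content were Pold1 (61.0%), Pold2 (58.7%), Cdt1 (57.8%) and Pold4 (57.3%), and the first 3 were among the 5 highest in level. The members of lowest GC content were Rpa3 (34.2%), Orc4 (36.8%), Orc5 (38.2%) and Orc3 (38.6%), all under the median of expressed genes. The part of base composition in the levels was not tested.

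The libraries were compared gene by gene with an exact two-sided binomial test on rounded expected counts, scaled by TMM and adjusted by Benjamini-Hochberg over 10863 genes. This test holds counting error alone and compares 2 libraries, not conditions. It called 42 of the 50 members different, at a background of 69.1% of all tested genes. Of these, 29 were higher in replicate 2 (background 34.7%) and 13 were higher in replicate 1 (background 34.4%). Among the 29, Mcm2, Mcm4, Mcm5 and Tyms had log2 ratios of scaled counts from 0.03 to 0.18, while their TPM was lower in replicate 2. With library totals in place of TMM the split was 22 and 17 for members, and 3065 and 4756 for all genes. At 2-fold or more, 9 members were higher in replicate 2 (background 7.46%) and 0 in replicate 1 (background 1.68%), where the furthest, Rpa3, was 1.82-fold higher. At an unadjusted p under 0.05 the test also called 42 members, and 7686 of the 10863 tested genes. The median log2 ratio of replicate 2 to replicate 1 was 0.15 over the members and -0.01 over all tested genes.

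The 9 members at 2-fold or more came from 7 complexes or steps. Mcm7 had a log2 ratio of 2.22 (4.65-fold), Pcna 2.03 (4.08-fold) and Orc6 2.01 (4.03-fold), and 98.0% to 98.5% of tested genes had a lower ratio than these 3. Rfc4 followed at 1.49, Prim2 at 1.45, Mcm10 at 1.43, Gmnn at 1.27, Fen1 at 1.10 and Pola1 at 1.04. The adjusted p of the exact binomial test was 1.19e-78 for Orc6, 1.83e-23 for Gmnn and 1.25e-48 for Pola1. At the other end Rpa3 was lower in replicate 2 with a log2 ratio of -0.86, Prim1 with -0.68, Gins4 with -0.58, Dbf4 with -0.54, Orc2 with -0.52 and Mcm6 with -0.52. Members of 1 complex moved in opposite directions, as Mcm7 and Mcm3 (0.86) did against Mcm6, and Prim2 and Pola1 against Prim1.

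Reads are not the only source of spread, so the test was repeated with variation beyond counting. With a coefficient of variation of 0.1 added, 17 members were called (background 18.8%), 15 higher in replicate 2 (background 14.1%) and 2 in replicate 1 (background 4.69%). The 9 members at 2-fold or more were all among the 15, with Mcm3, Rfc1, Tk1, Chaf1a, Chaf1b and Pold4, and the 2 were Dbf4 and Gins4. With the variation edgeR estimated, a biological coefficient of variation of 0.30, only Mcm7 was past the threshold among the members. It was higher in replicate 2 (background 1.34% in that direction and 1.52% in either). With the same variation 7 members had an unadjusted p under 0.05, as did 583 of the 10863 tested genes. That variation was estimated from the difference between the same 2 libraries, so the call only marks how far Mcm7 lay from most genes and is no independent test. The share of members called was 84.0% by counting error alone, 34.0% with the added 0.1 and 2.0% with the estimated variation, each beside the background given above. The 8 members not called by counting error alone were Orc1, Orc4, Orc5, Pola2, Pold3, Pole, Pole2 and Rpa2.

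**Figure D3:**
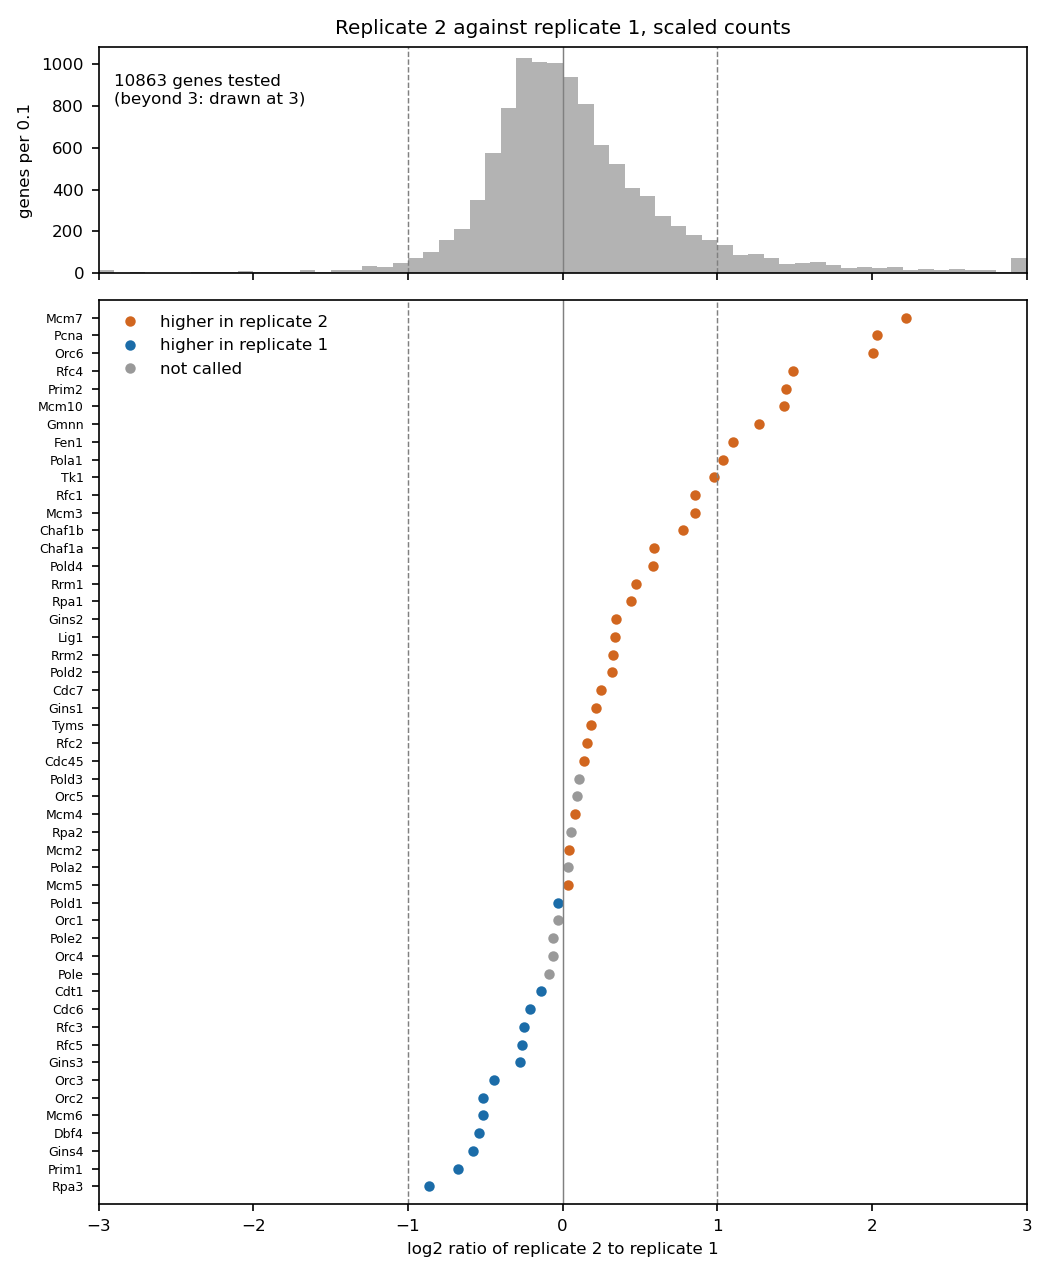
The upper panel counts the 10863 tested genes by their log2 ratio of replicate 2 to replicate 1 and the lower panel gives the ratio of each member, coloured by the exact binomial call, with dashed lines at 2-fold. The members run from -0.86 for Rpa3 to 2.22 for Mcm7, and 9 lie beyond 2-fold toward replicate 2.

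A gene's TPM sums its transcript models, and short models weigh more per read than long ones. Models were split by GENCODE M21 class, and a complete coding model is a protein-coding model not marked as lacking a start or an end. In 34 members a complete coding model led the TPM in both libraries, against 70.5% of expressed protein-coding genes, and in 14 members it led in neither, against 22.7%. By expected counts the first number was 40. A retained intron model led in both libraries in 5 members, against 6.53% of expressed genes. The complete coding models alone had a median of 19.6 TPM over the members, and 46 members kept at least 1 TPM in both libraries. The exceptions were Orc3 (0.80 and 0.45 TPM), Orc4 (0.59 and 0.25 TPM), Tyms (0.84 and 1.27 TPM) and Rfc1 (0.12 and 0.33 TPM), and 6 of the 7 Rfc1 models were not in M21.

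Several of the values above rested on short models. For Pold2 the model Pold2-202, a processed transcript of 342 bases, held 244 and 376 TPM, while Pold2-201, the complete coding model of 1646 bases, held 157 and 185 TPM and 74.2% and 75.3% of the counts. For Pold1 the complete coding model held 264 and 239 TPM, so both polymerase delta subunits stayed over 100 TPM in that class. Pold1 was there the higher of them in both libraries, and the highest member was Rrm2, at a mean of 348 TPM. For Orc2 the partial model Orc2-205 of 370 bases held 38.4 and 25.6 TPM and the complete coding models 14.8 and 9.61 TPM. Rfc5-202, of 772 bases, held 170 and 119 TPM of Rfc5, and the longer Rfc5-201, of 2796 bases, held 7.63 and 5.12 TPM. Pole-203, of 747 bases, held 28.6 and 16.2 TPM, against 2.22 and 2.50 TPM for Pole-201, of 7163 bases. Rfc5-202 and Pole-203 are themselves classed as complete coding, so that class does not set aside every short model.

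Other members had most of their TPM in models without a complete coding sequence. For Lig1 the processed transcript Lig1-207 held 81.3 and 103 TPM, and the complete coding models 8.43 and 11.1 TPM. Orc1 was led by Orc1-203, a processed transcript of 679 bases, at 16.4 and 11.0 TPM. Mcm10 was led by the retained intron model Mcm10-209, at 10.4 and 23.45 TPM. For Rpa2 the retained intron model Rpa2-202 held 65.3 and 71.6 TPM, and for Rpa1 Rpa1-205 held 63.6 and 102 TPM. In Tyms the retained intron model Tyms-202 held 11.6 and 11.1 TPM. Rfc3 was led by Rfc3-204, also a retained intron model, and its complete coding model was at 2.39 and 1.00 TPM. The ratio of Rfc5 to Rfc3 over complete coding models was 74.5 and 124, and its Rfc5 level was mostly that of the short model Rfc5-202.

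The leading model by TPM was the same in both libraries in 44 of the 50 members, against 87.4% of expressed protein-coding genes, and changed in the others. For Tk1 the retained intron model Tk1-203 led in replicate 1 at 64.7 TPM and had 5.26 TPM in replicate 2. Tk1-201, the complete coding model, had 27.9 TPM in replicate 1 and led in replicate 2 at 104 TPM. For Gins2 the retained intron model Gins2-204, of 511 bases, had 0.49 TPM in replicate 1 against 91.3 TPM in replicate 2, whereas the complete coding model Gins2-201 was at 17.0 and 11.5 TPM. By counts Gins2 differed 1.27-fold between the libraries. For Rfc4 the model Rfc4-202, annotated as a target of nonsense-mediated decay, led in both libraries. It held 15.4 and 70.2 TPM, and the complete coding models were at 5.49 and 6.51 TPM. For Mcm7 and Pcna the complete coding models were also higher in replicate 2, at 10.2 and 44.1 TPM for Mcm7 and at 20.5 and 78.7 TPM for Pcna.

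**Figure D4:**
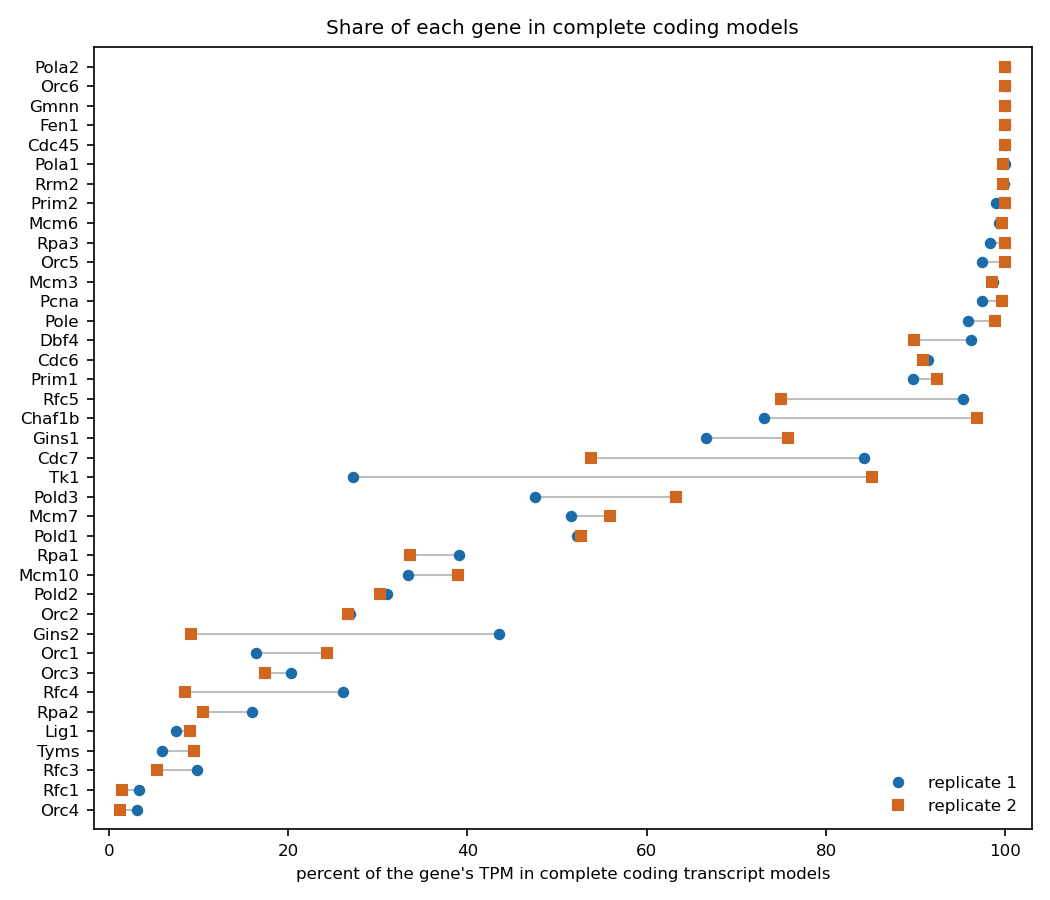
Points give the percent of each gene's TPM held by complete coding transcript models in replicate 1 (circles) and replicate 2 (squares), for the 39 members with more than 1 model. Shares run from near 0 for Orc4 and Rfc1 to near 100 for Pola2 and Orc6, and Tk1 moves from 27.2% to 85.1% between the libraries.

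Some members share sequence with other genes, where reads could be split. Of the 50 members, 5 had no 31-base stretch in common with transcripts of another gene, 15 shared at least 10% of theirs and 3 at least 50%. The 3 were Fen1, which shared 76.8% with the antisense gene Gm10143, Gins2 with Gse1 (66.2%) and Chaf1a with Ubxn6 (50.9%). Gm10143 was at 0.03 and 0.06 TPM, Gse1 at 138 and 123 TPM and Ubxn6 at 38.3 and 35.2 TPM. All 3 neighbours lie on the opposite strand, and 15 members overlapped an exon of the other strand. The sources used here do not say whether counting used strand, so the levels of these genes are uncertain. Pcna shared 23.3% with its pseudogene Pcna-ps2, which had 110.7 and 33.1 expected counts and was lower in the library where Pcna was higher.

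A protein-coding gene started within 1000 bases on the other strand for 14 of the 50 members (28.0%), against 20.3% of expressed protein-coding genes. The neighbour of Mcm4 was Prkdc, a DNA repair kinase, at 1.57 and 1.08 TPM, far under Mcm4. The neighbour of Mcm7 was Ap4m1, an adaptor subunit, at 4.37 and 18.5 TPM, higher in the same library as Mcm7, with which it overlaps by 321 bases of exon. The neighbour of Orc6 was Vps35, a sorting factor, at 5.59 and 2.86 TPM, higher in the opposite library. Prpf38a beside Orc1 was at 2.94 and 6.03 TPM, Pxmp2 beside Pole at 51.5 and 42.2 TPM, and Abhd12 beside Gins1 at 38.6 and 28.2 TPM. The others were Ufd1 (Cdc45), Slc25a40 (Dbf4), Tmem258 (Fen1), Rars2 (Orc3), Mbd5 (Orc4), Smyd4 (Rpa1), Umad1 (Rpa3) and Afmid (Tk1), at mean levels from 0.59 to 16.2 TPM. Gm45062, also beside Rpa3, had no value in the tables, and 22 members had a divergent neighbour when non-coding genes were counted.

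Further genes of the pathway were detected at similar rates, and their levels are gene TPM that was not split by transcript model. All 26 further replication factors reached 1 TPM in both libraries, from Pclaf, a Pcna-binding protein, at 2.08 and 1.47 TPM to Rnaseh2a at 810 and 736 TPM, Rnaseh2c at 349 and 529 TPM and Chtf8 at 120.2 and 120.5 TPM. Of these, 12 were called higher in replicate 2 (background 34.7%) and 11 in replicate 1 (background 34.4%) by the exact binomial test. The TPM of Rnaseh2a rested on an effective transcript length of 219 and 251 bases, while its longest transcript has 2981 bases. Rnaseh2c had 16997 and 11315 counts at effective lengths of 808 and 475 bases. All 9 histone chaperones and maintenance methylation genes were detected, the highest being Asf1b (227 and 295 TPM), Rbbp7 (324 and 194 TPM) and Dnmt1 (133 and 172 TPM) and the lowest Hat1 (4.16 and 2.66 TPM). Of 30 further genes of nucleotide supply 28 were detected, and the highest named here were Cad (643 and 672 TPM) and Shmt2 (405 and 521 TPM). Ctps2 was below the limit, at 0.70 and 0.57 TPM. By the same test 13 of the 30 were called higher in replicate 2 (background 34.7%) and 13 in replicate 1 (background 34.4%).

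Relatives of the members with other roles ranged from 0 counts to high levels. Of 5 other MCM and geminin family members only Mcm8, which acts in repair, was detected in both libraries, at 4.51 and 3.77 TPM. Its partner Mcm9 was at 1.01 and 0.85 TPM, and Mcmdc2, Gmnc and Mcidas had 0 counts, where 3 counts of a library's total is the limit that 0 allows. Of 15 translesion and repair polymerases 11 were detected, led by the mitochondrial Polg (176 and 187 TPM), Polm (68.1 and 44.9 TPM) and Mad2l2 (35.6 and 29.0 TPM). Those below 1 TPM were Primpol (0.32 and 0.23 TPM), Polk (0.27 and 0.18 TPM), Poln (0.02 and 0.05 TPM) and Dntt, listed at 0. Erythroid markers were detected in 7 of 7, from 1.72 TPM for Alas2 to 7841 TPM for Hba-a1 in mean level, and of 8 markers of other cell types 0 were detected, the highest at a mean of 0.03 TPM. The gene tables held 68901065 expected counts in replicate 1 and 51923117 in replicate 2.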

How the data were processed

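RNA-seq gene and transcript tables of 2 libraries of 1 group, G1E-ER4, were used. Per the file headers, the deposited expected counts are model estimates with fractions, and were rounded for tests. The authors also deposited TPM and a posterior mean TPM, abundances per transcript length that add up to the same total in each library. The build is mm10, per the labels, and the annotation of the tables is GENCODE M4, per the deposited readme files. Aligner, quantifier and strand setting: not given in the sources used here. Names, coordinates and transcript classes came from GENCODE M21 on the same build, where 42462 of 43346 genes matched, and the 884 unnamed genes held 0.277% and 0.291% of counts. Other rows held 0 and 1 count.

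The members and lists were chosen with earlier results of these data known. All 50 members were named, with the 3 highest and the lowest of each further list, every gene of those lists under 1 TPM in a library, and divergent neighbours. Some genes that this rule names are not reported here. Levels are each library's TPM, with means and SDs over n = 2, and detection means 1 TPM in both. Library ratios used TMM sizes (edgeR 4.0.16, R 4.3.3) and an exact two-sided binomial test (scipy 1.17.1) on genes averaging 10 counts or more, adjusted at 0.05. P-values hold counting error only, as do limits from 0 counts, since PCR reads are not independent molecules. Tested on simulated counts for this comparison (10863 genes), it called 94.0% of genes at a true fold of 2, 84.0% at 0.5, 98.0% at 4, 90.0% at 0.25 and 0.0469% of 10663 unchanged genes. The simulated counts held counting error alone, which the test assumes, so these shares give no error rate for libraries that vary beyond it. Alternatives were posterior mean TPM, TPM without globin, ribosomal RNA-like and mitochondrial genes, coding models alone, other scaling (DESeq2 1.42.0 size factors, library totals), other count minimums and added variation. Promoters came from RefSeq (GRCm38.p6). Gins1, Gins2, Gins4, Gmnn, Rfc2, Prim2, Pole and Mcm4 have no printed promoter.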

Additional observations from a re-analysis of the deposited data

How the results depend on the processing

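Without replicate 1 or 2 the members' median lay between 27.84 and 36.14 TPM, Mcm2 over Mcm7 between 4.12 and 17.1, Chaf1a over Chaf1b between 0.98 and 1.05 and Mcm4 over Mcm3 between 0.98 and 1.67, so the latter pairs changed order. Over complete coding models alone, chosen after seeing the data, medians moved to 19.6 TPM for all members, 3.76 for the origin recognition complex, 20.6 for helicase activation, 15.7 for GINS, 96.6 for polymerase delta, 11.6 for RPA, 40.3 for fragment joining and 47.5 for nucleotide synthesis. Ratios moved to 141 for Cdt1 over Cdc6, 1.18 for Chaf1a over Chaf1b (1.34 and 1.08 by library, with Chaf1a higher in both), 89.2 for Rfc5 over Rfc3, 3.04 for Orc2 over Orc5, and 0.14 for Lig1 over Fen1, which reversed. Over all protein-coding models they were 141, 1.13, 89.2 and, reversed again, 0.19 for Lig1 over Fen1. In both classes the 89.2 for Rfc5 over Rfc3 rested mostly on Rfc5-202, a model of 772 bases. Posterior mean TPM gave 121 for Cdt1 over Cdc6 and 47.2 for Pold1 over Pold3. It also moved the mean levels of Orc5 to 4.23 TPM and Mcm4 to 104.2 TPM, where the SDs were 0.078 and 0.89 TPM. Without globin, ribosomal RNA-like and mitochondrial genes the origin recognition complex had 12.2 and RPA 92.2 TPM. With a coefficient of variation of 0.1 added, calls toward replicates 2 and 1 were 1537 and 509 over all genes and 15 and 2 over members, and with the estimated one 146 and 19 over all genes and 1 and 0 over members. Counting 250 bases before the start alone, 9 members had an E2F match (21.4%, against 4.62% of expressed protein-coding genes). The remaining values stayed within 1 SD of n = 2, which is wide, or, for counts, within 1.5 times. For the level of a single gene, either library always lies within 1 SD of the mean of both. Leaving out a replicate therefore could not move the level of any of the 50 members, and this outcome is no check. Of the remaining values, 261 lay within 1.5 times the reported value and 29 did not. Among the latter, 24 are values of a single library and 5 come from coding models, namely 21.8 TPM for the clamp and clamp loader, 12.2 and 11.8 for Mcm2 over Mcm7, and 21.1 in both classes for Rpa1 over Rpa3. The cause of these moves was not tested, apart from fewer samples or models entering. With n = 2 the spread limits abundant genes and depth the rare ones. No paired analysis was possible because the libraries form 1 group.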
